A study of Arabidopsis thaliana with 8 samples.

Results

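SWEET4 (AT3G28007) and the RCI2-like gene AT4G30660 are 2 of the 22746 probe sets measured in leaves of Arabidopsis that overexpress the grapevine transcription factor VaNAC26. Both were chosen by their measured ratios, since each was higher in VaNAC26-OE plants than in WT on both days and higher under drought than before it in both genotypes. These 4 ratios are therefore described below and not tested. The question left to test was whether the effects of genotype and drought added up on the log scale. For both genes the fold change between genotypes was similar before and under drought. The choice of genes left little room for a smaller fold under drought. Neither gene departed from multiplied folds by more than its error, although the interval for AT4G30660 was wide.

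WT plants were Arabidopsis ecotype Columbia-0. The OE plants carried VaNAC26 from Vitis amurensis under the CaMV 35S promoter in the same ecotype, so the transgene was driven throughout the plant and not in one cell type. Each OE sample was an equal pool of leaves of 3 transgenic lines, and values of single lines are not separated here. All plants grew in soil for 21 d, after which leaves were taken before drought (WT 0d and OE 0d) or after 5 d without water (WT 5d and OE 5d). Each of the 4 groups had 2 arrays, 8 in all. No group was watered until 5 d, so the drought effect cannot be told apart from plant age and sampling day. The sources used here do not say that the arrays of a group came from separate plants, and the spread between them may be technical. As these are whole leaves, a change in the share of a cell type cannot be told apart from a change in RNA per cell.

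SWEET proteins are membrane carriers through which sugars move down their concentration gradient, in either direction. SWEET4 carries glucose and fructose across the plasma membrane in Arabidopsis and is known from veins. Other members of the family move sucrose out of phloem parenchyma cells or sugars across the vacuolar membrane. RCI2 proteins (for rare cold inducible) are very small, hydrophobic proteins of plant membranes, related to the yeast protein PMP3, whose loss makes yeast sensitive to salt. RCI2A and RCI2B, which name the family, are induced by cold and dehydration in Arabidopsis, while the function of AT4G30660 itself is less studied.

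The ATH1 array measures a transcript with a set of short probes, and the deposited value is 1 normalized intensity per probe set and array on a linear scale. Array medians ran from 36.2 to 38.2, and 47.8% of all values were under 32, where signal and background are hard to separate. The 2 OE 5d arrays were less alike than the others: 1294 probe sets (5.69%) differed more than 2-fold between them, against 143 (0.629%) in WT 5d, while the pairs at 0 d had 87 such probe sets for WT and 79 for OE. Of the leaf mesophyll markers listed, the RuBisCO activase gene RCA was the 1 with a named probe set, and it lay between 6992 and 9858 on every array. The summed intensity of 3 of 4 root markers, mostly from PYK10, was 122.2 and 153.9 in WT 0d. OE 0d gave 58.33 and 82.89, WT 5d gave 29.07 and 30.64, and OE 5d gave 31.29 and 44.76. It was lower in the other 3 groups than in WT 0d, in which SWEET4 and AT4G30660 were lowest. At 5 d the OE arrays were both above the WT arrays, but there each of the 3 probe sets was under 32 on every array. The part of root markers in the values of SWEET4 and AT4G30660 was not tested. Markers of phloem, guard cells, meristem and flowers had no probe set named here. The senescence gene SAG101 lay at 19.39 to 19.63 in WT 0d and 16.47 to 19.69 in OE 0d. At 5 d it lay at 45.9 to 58.87 in WT and at 18.47 to 38.93 in OE.

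SWEET4 was dim in well-watered WT leaves, at 25.22 and 25.88. OE 0d gave 45.9 and 57.49, and WT 5d gave 87.31 and 55.79. The brightest arrays were those of OE 5d, with 150.7 and 155.2. Group means were 25.55 ± 0.463 (SD, n = 2) for WT and 51.7 ± 8.198 for OE at 0 d, and 71.55 ± 22.28 for WT and 152.9 ± 3.17 for OE at 5 d. The groups thus rose in order from WT 0d to OE 5d, with OE 0d below WT 5d in mean, but these middle groups overlapped and are not separated by their spread. Every WT 0d array lay below, and every OE 5d array above, all other arrays. Relative to the whole array, the WT 0d mean stood at or above 43.69% of probe sets and the OE 5d mean at or above 77.75%.

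The 4 differences of SWEET4, in log2 with a standard error of 0.218 each, were 1.01 for OE 0d vs WT 0d, 1.13 for OE 5d vs WT 5d, 1.45 for WT 5d vs WT 0d and 1.57 for OE 5d vs OE 0d. As folds these are 2.01, 2.19, 2.73 and 2.98. The drought differences were the larger ones with all arrays. In WT this order turned without the first WT 5d array, when WT 5d vs WT 0d was 1.13 and OE 5d vs WT 5d 1.45. With each array left out in turn, the 4 differences ranged from 0.85 to 1.17, 0.81 to 1.45, 1.13 to 1.77 and 1.41 to 1.74. The closest arrays of the groups compared were 1.73-fold apart, in OE 5d vs WT 5d. That the groups did not overlap in any of the 4 was favoured by the choice of genes. The share of all probe sets without overlap was not counted. Both WT 0d values were under 32, and the background of this probe set was not measured here. Setting all values under 32 to 32 lowered OE 0d vs WT 0d to 0.68 and WT 5d vs WT 0d to 1.13 on the log2 scale.

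AT4G30660 was brighter than SWEET4 on each array, but intensities of different probe sets are not compared as amounts of transcript. WT 0d gave 101.6 and 119.2, OE 0d gave 245.9 and 215.2, WT 5d gave 317.7 and 135.9, and OE 5d gave 694.6 and 354.4. The means were 110.4 ± 12.4 (SD, n = 2) for WT and 230.6 ± 21.71 for OE at 0 d, and 226.8 ± 128.6 for WT and 524.5 ± 240.6 for OE at 5 d. Both OE 0d arrays lay between the 2 WT 5d arrays, so that well-watered OE leaves and droughted WT leaves had no order. WT 0d was again the lowest group and OE 5d the highest, with no overlap with any other group.

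The arrays at 5 d disagreed most. In WT 5d the first array was 2.34-fold brighter than the second for AT4G30660, and in OE 5d 1.96-fold, whereas at 0 d the ratio was 0.852 for WT and 1.14 for OE. SWEET4 had a similar gap in WT 5d (1.56-fold) but none in OE 5d (0.971). Some cold-regulated genes split the same way as AT4G30660. COR15A, a chloroplast protein that protects membranes in the cold, was 1.9-fold and 1.84-fold brighter on the first WT 5d and the first OE 5d array, and its close copy COR15B 2.02-fold and 1.61-fold. The ratios were 2.11 and 1.21 for COR414-TM1 and 1.51 and 4.42 for LTI30, while COR47 had 1.32 in WT 5d and 0.828 in OE 5d.

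**Figure D1:**
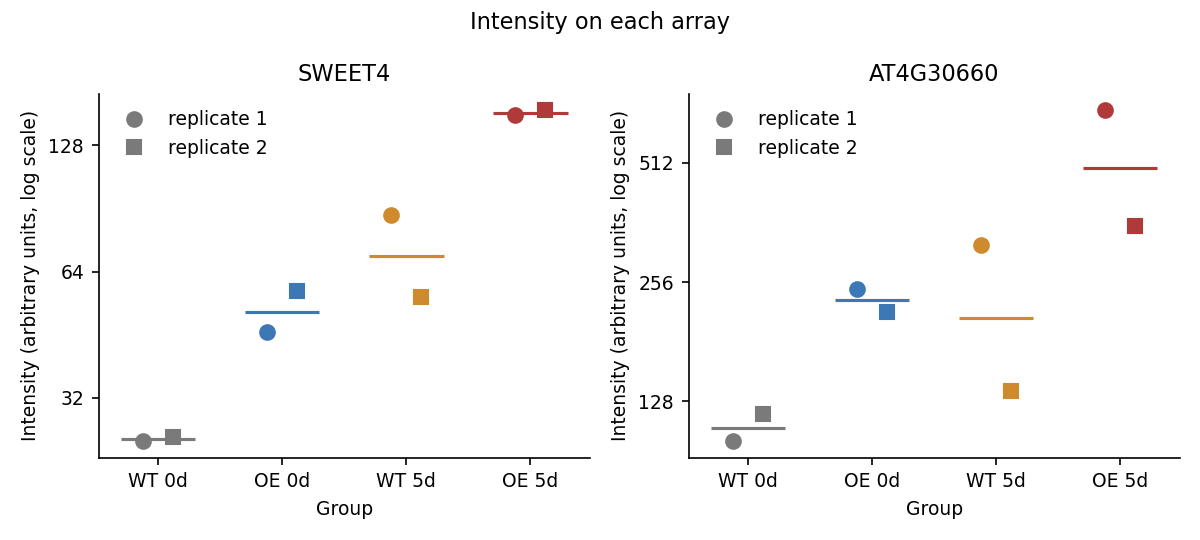
Normalized intensity (arbitrary units, log axis) of SWEET4 and AT4G30660 on each of the 8 arrays; circles are replicate 1, squares replicate 2 and lines geometric means of each group. OE 5d lies above all other groups for both genes, OE 0d and WT 5d overlap, and AT4G30660 is split in both 5 d groups (317.7 against 135.9 and 694.6 against 354.4).

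In log2 with a standard error of 0.416, the differences of AT4G30660 were 1.06 for OE 0d vs WT 0d, 1.26 for OE 5d vs WT 5d, 0.92 for WT 5d vs WT 0d and 1.11 for OE 5d vs OE 0d. The folds were 2.09, 2.39, 1.89 and 2.16, so that here genotype and drought had similar sizes. The groups compared did not overlap, which the choice of genes again favoured. The nearest arrays of OE 5d and WT 5d were 1.12-fold apart and those of WT 5d and WT 0d 1.14-fold. The single WT 5d arrays set 2 of these folds. Without the first WT 5d array WT 5d vs WT 0d was 1.23-fold and OE 5d vs WT 5d 3.65-fold, and without the second they were 2.89-fold and 1.56-fold. OE 0d vs WT 0d, which uses neither, stayed between 1.93-fold and 2.26-fold whichever array was left out.

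A ratio of arithmetic means over 2 in each of the 4 comparisons was met by 5 probe sets, SWEET4 and AT4G30660 among them. The other 3 belong to cold-responsive genes. COR414-TM1 (AT1G29395, also named COR413IM1), which codes for a protein of the inner chloroplast envelope, had a smallest ratio of 2.61, in OE 0d vs WT 0d. LTI30, a dehydrin, reached 2.01 in the same comparison and COR15A 2.0 in WT 5d vs WT 0d. SWEET4 and AT4G30660 stood close to the threshold as well, with smallest ratios of 2.02 (OE 0d vs WT 0d) and 2.05 (WT 5d vs WT 0d). For AT4G30660 the latter depends on the kind of mean, since the fold from log2 values was 1.89. Just outside lay a pair of probe sets not named here, at 1.97 and 1.94, and the expansin gene EXPA16 at 1.93 (OE 5d vs WT 5d).

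If genotype and drought act independently on the log scale, their folds multiply, and the level in OE 5d can be predicted from the other 3 groups. For SWEET4 the genotype step was 26.15 intensity units at 0 d and 81.36 at 5 d, and the drought step was 46.0 in WT and 101.2 in OE. Adding the steps measured from WT 0d predicts 97.7 for OE 5d, and multiplying the folds predicts 140.3. The measured mean was 152.9, which is 1.09 times the product. This product rests on the WT 0d values, which were under 32. The measured mean is also 1.56 times the sum (an excess of 55.21 units), but this was fixed by the choice of genes: a level over 2 times both WT 5d and OE 0d is always above the sum of the steps. The comparison with the sum is therefore a description and carries no information on how the effects combine.

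For AT4G30660 the spread was larger. Its genotype step was 120.2 at 0 d and 297.7 at 5 d, and its drought step 116.4 in WT and 293.9 in OE. The sum of steps predicts 347.0 and the product of folds 434.3. The measured OE 5d mean was 524.5, 1.51 times the sum, as the choice of genes again required. The geometric mean, 496.2, was 1.14 times the product, and the OE 5d arrays, at 694.6 and 354.4, lay on either side of the product.

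The test of the interaction, (OE 5d − WT 5d) − (OE 0d − WT 0d) in log2 with limma over all 22746 probe sets, did not pass for either gene. SWEET4 had an interaction of 0.12 (SE 0.309, 95% interval −0.59 to 0.84, adjusted p = 0.8914), and 72.83% of probe sets had a larger one in size. With values under 32 set to 32, which raises both WT 0d values of SWEET4, its interaction was 0.45 (SE 0.348, adjusted p = 0.8684). AT4G30660 had 0.19 (SE 0.589, 95% interval −1.17 to 1.55, adjusted p = 0.9153), and 59.86% of probe sets had a larger one. In folds, the data allow a drought response in OE of 0.665 to 1.79 times that in WT for SWEET4, and of 0.446 to 2.93 times for AT4G30660. A p above the threshold does not show that the effects multiply exactly, and for AT4G30660 departures of more than 2-fold either way remain within the interval. Over all probe sets 7 passed at an adjusted p under 0.05 (0.0308%) and 3375 at an unadjusted p under 0.05. The median size of the interaction over all probe sets was 0.25, above both estimates from the values as deposited. That median includes dim probe sets, and the choice of genes left out those whose OE fold was lost. The comparison therefore does not bear on whether the effects multiply.

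The interaction is built from the same arrays and ratios by which the genes were selected. Asking for ratios over 2 in all 4 comparisons left out genes whose OE fold was lost at 5 d. It also left little room for a negative interaction in these 2 genes. Their ratios of means were 2.02 for SWEET4 (OE 0d vs WT 0d) and 2.05 for AT4G30660 (WT 5d vs WT 0d). With the matching ratio at 5 d or in OE also over 2, an interaction of such ratios could hardly fall below 0. The positive signs are therefore no result separate from the choice of genes. Of the 61 probe sets over 2-fold in both OE 0d vs WT 0d and WT 5d vs WT 0d, comparisons that share the WT 0d arrays, the median interaction was −1.61 (quartiles −1.96 and −1.18), and 4 were above 0. SWEET4 and AT4G30660 were 2 of these 4. The sign of both estimates also turned with single arrays: SWEET4 had −0.20 without the second WT 5d array and −0.04 without the first OE 0d array, and AT4G30660 had −0.42 without the second WT 5d array and −0.29 without the first OE 5d array.

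**Figure D2:**
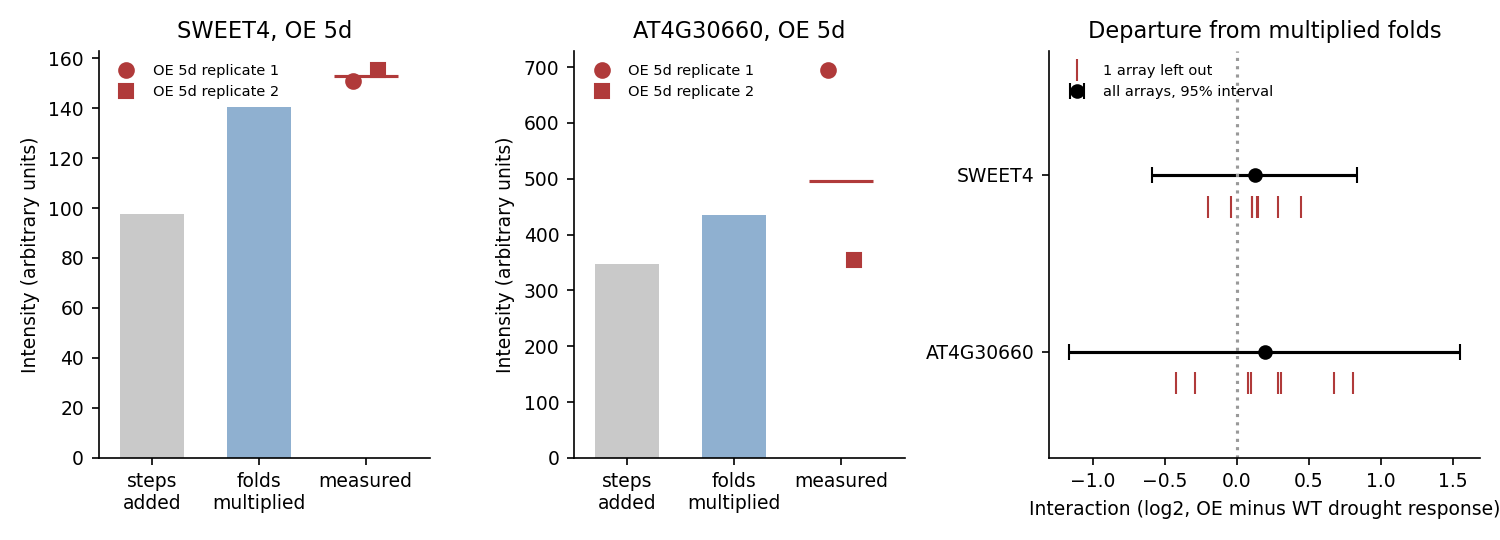
Left and middle, OE 5d intensity (arbitrary units) of SWEET4 and AT4G30660 predicted by adding the steps (grey bars) or multiplying the folds (blue bars) of the other 3 groups, beside the 2 measured arrays (red) and their geometric mean (line). Right, log2 interaction with its 95% interval (black) and the value with each array left out (red ticks); both intervals include 0 and the ticks lie on both sides of it. That OE 5d exceeds the grey bars follows from how the genes were chosen.

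The other 3 probe sets of the same class differed among themselves. COR414-TM1 had a geometric mean of 469.2 in OE 5d against 406.9 from multiplied folds, with an interaction of 0.21 (SE 0.432). COR15A had 643.3 against 435.8, with an interaction of 0.56 (SE 0.498). LTI30 lay below its product, with 99.62 against 118.8 and an interaction of −0.25 (SE 0.818), and its OE 5d arrays stood far apart at 209.4 and 47.39. None of these interactions passed, with adjusted p of 0.8641, 0.6356 and 0.9191.

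Within the SWEET family, 16 of 17 genes had a named probe set (SWEET12 did not). Apart from SWEET4, none of the 15 others was called between genotypes on either day, by limma at an adjusted p under 0.05. At an unadjusted p under 0.05, SWEET5 was higher in OE 0d, and in OE 5d SWEET16 was higher and SWEET2 lower. Few probe sets of the whole array were called in these comparisons, 12 higher (0.0528%) and 6 lower (0.0264%) at 0 d, and 11 higher (0.0484%) and 0 lower (0%, with 2033 lower at an unadjusted p under 0.05) at 5 d, so that little can be read from a count of 0 among 15. The balance of directions turned with values under 32 set to 32, to 14 higher and 36 lower at 0 d and 4 higher and 23 lower at 5 d. The median log2 difference of the 15 genes was 0.18 in both, beside −0.005 and −0.004 over all probe sets.

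With drought in WT, SWEET11, which exports sucrose from phloem parenchyma, rose by 1.49 in log2 (adjusted p = 0.02693) from 492.0 and 914.5 to 1749 and 2020. The vacuolar carriers SWEET16 and SWEET17, the latter for fructose, fell by 1.35 (adjusted p = 0.000834) and 0.90 (adjusted p = 0.02474). SWEET16 went from 34.79 and 33.98 to 12.31 and 14.8, and SWEET17 from 348.8 and 367.3 to 221.4 and 166.0. The count was thus 1 higher and 2 lower of 15, where 15.7% of all probe sets were called higher and 14.8% lower. Of the 16 genes, SWEET11 (1.49) and SWEET4 (1.45) had the largest log2 differences between WT 5d and WT 0d with all arrays. SWEET4 was chosen by this same ratio, so its rank is no result. Without the first WT 5d array its difference was 1.13.

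With drought in OE, 4 of 15 fell and 0 rose, beside 7.06% of all probe sets called higher and 6.53% lower. SWEET16 fell by 0.97 (adjusted p = 0.006249) and SWEET17 by 0.90 (adjusted p = 0.04616), as in WT. SWEET2, a glucose carrier of the vacuolar membrane, fell by 0.99 (adjusted p = 0.02788), from 131.7 and 163.1 to 78.99 and 69.43. SWEET1, a glucose carrier of the plasma membrane, fell by 0.63 (adjusted p = 0.03264), from 351.1 and 339.7 to 230.2 and 216.2. SWEET11 differed by 0.49 (adjusted p = 0.5178), with its OE 5d arrays far apart at 983.4 and 2337. None of the 15 had a called interaction (SWEET9 alone had an unadjusted p under 0.05), so a different drought response between genotypes was not shown for any of them.

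These calls were of unequal firmness. SWEET16 in WT kept its call under all 13 alternatives run for it. Its 5 d arrays were under 32 in both genotypes, at 12.31 and 14.8 in WT. Setting values under 32 to 32 makes them equal and removes their spread, so keeping the call there is no sign of firmness. With values under 32 set to 32 the calls of SWEET11 in WT, of SWEET1 and SWEET2 in OE and of SWEET17 in both were lost. These genes were over 32 on all 8 arrays. Their values therefore stayed the same, and only the spread and adjustment shared by all probe sets changed behind each call. SWEET11 in WT also lost it without the first WT 0d array, without either WT 5d array and without either OE 0d array, with adjusted p from 0.001902 to 0.1845 over its alternatives. SWEET17 in WT lost it also without either WT 0d array or the second WT 5d array (0.004322 to 0.1638). In OE, SWEET1 and SWEET2 lost theirs without any one of the WT 0d and OE 0d arrays or the second OE 5d array (up to 0.1707 and 0.1956), SWEET16 without either OE 0d array (up to 0.06509), and SWEET17 without any one of 7 arrays, the first OE 5d array being the exception (up to 0.2639). Without the second OE 5d array SWEET9 and SWEET15 gained a call for both comparisons of OE 5d and for the interaction, and SWEET11 for the interaction. Without the first, SWEET8, SWEET10 and SWEET11 gained one for OE drought, and without either, SWEET5 for WT drought.

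Most of the remaining SWEET genes were dim. SWEET3, SWEET5 to SWEET10, SWEET13 and SWEET14 were under 32 on all 8 arrays, among them SWEET5 and SWEET8, known from pollen, and SWEET9, known from nectaries. SWEET15, a sucrose carrier known from seeds and senescing leaves, was not called. WT 0d gave 23.16 and 31.34, OE 0d gave 26.03 and 21.82, WT 5d gave 18.71 and 20.56, and OE 5d gave 43.98 and 16.85.

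For the RCI2 family, 5 of 8 genes had a named probe set (RCI2A, RCI2B and AT4G28088 did not), and the medians of the 4 genes other than AT4G30660 lay between 0.02 and 0.13 in log2, except for 0.51 in OE 5d vs OE 0d. AT2G24040 rose with drought in WT by 0.94 (adjusted p = 0.01467), from 97.14 and 106.6 to 165.7 and 229.1. It was thus 1 of 4 called there, beside 15.7% of all probe sets called higher, and it lost the call without either WT 0d array, without the second WT 5d array or with values under 32 set to 32 (adjusted p up to 0.1088). In OE it differed by 0.59 (adjusted p = 0.1257), and this passed without the second OE 5d array. AT1G57550 and AT2G38905 were under 32 on all arrays. AT2G24040 was over 32 on all arrays, so setting values under 32 to 32 did not change its own values. No gene of the 4 was called between genotypes, in OE drought or for the interaction. At an unadjusted p under 0.05 AT4G30650 was higher in OE 5d vs WT 5d, beside 1592 of all 22746 probe sets. For OE drought 3 of the 4 were higher at this level, the dim AT1G57550 among them, beside 3110 of the 22746.

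AT4G30650 is the protein-coding gene next to AT4G30660 on chromosome 4 in the RefSeq annotation (TAIR10.1), without overlap, and has its own probe set. WT 0d gave 59.91 and 43.76, OE 0d gave 52.0 and 50.75, WT 5d gave 82.56 and 37.1, and OE 5d gave 358.7 and 100.9. Before drought it did not share the difference between genotypes of its neighbour, with log2 values of 0.005 for AT4G30650 and 1.06 for AT4G30660. Both OE 5d arrays stood above all others, and the differences were 1.78 from WT 5d (SE 0.566, adjusted p = 0.23), 1.89 from OE 0d (adjusted p = 0.06473) and 1.78 for the interaction (SE 0.801, adjusted p = 0.3532). All 3 passed without the second OE 5d array, and the difference from OE 0d also passed when dim probe sets were left out. Its first arrays at 5 d were also the brighter ones, 2.23-fold in WT and 3.56-fold in OE, as for AT4G30660. On its other side AT4G30660 overlaps AT4G30662 in the annotation, and a part of that gene in the signal was not tested. SWEET4, on chromosome 3, overlaps neither of its neighbours.

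**Figure D3:**
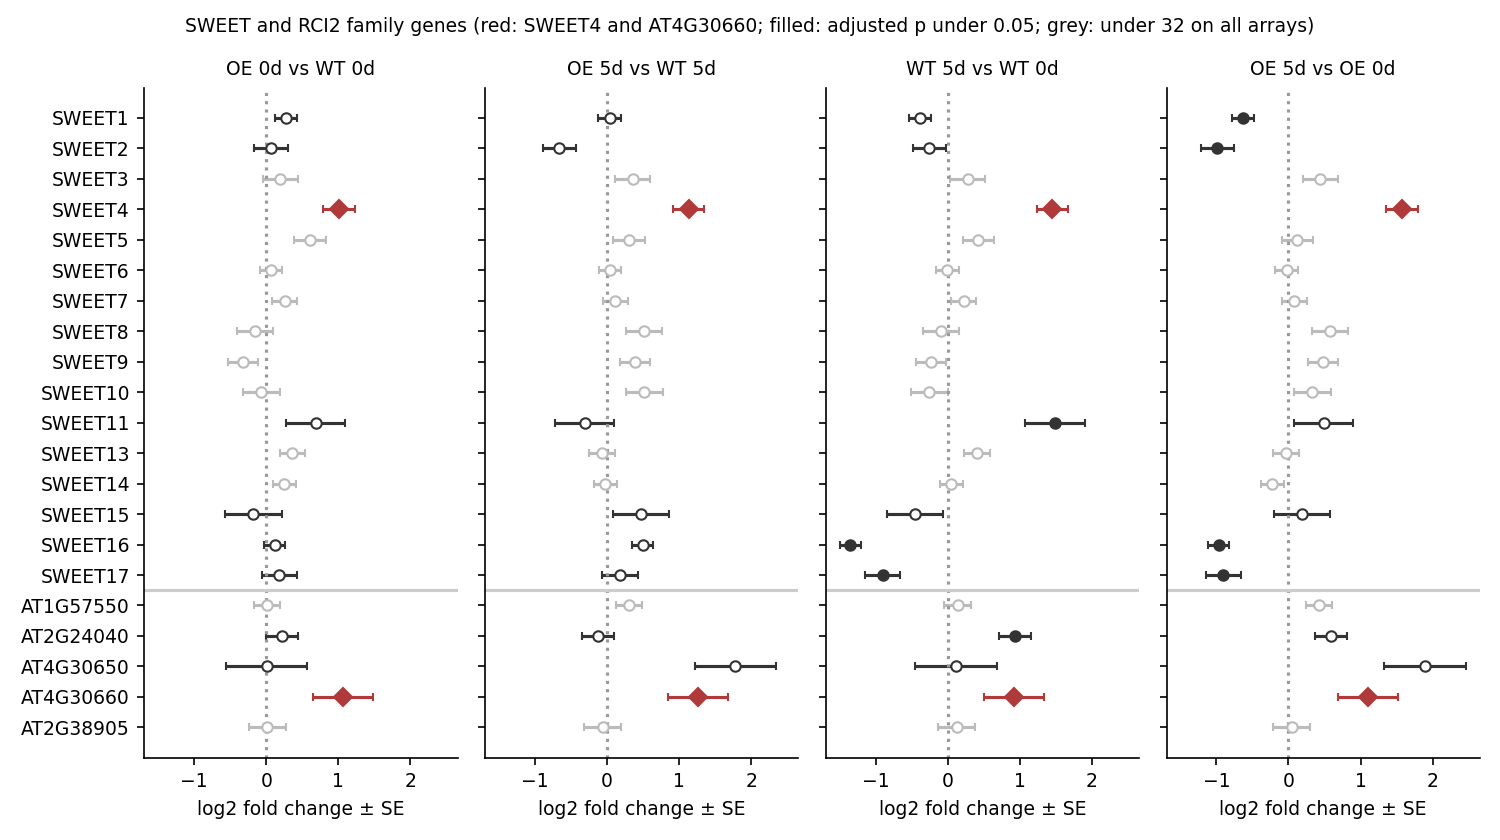
Log2 fold change with its SE in the 4 comparisons for the 16 SWEET and 5 RCI2 family genes with a named probe set. SWEET4 and AT4G30660 (red diamonds, chosen for these values and not tested) lie to the right of 0 in each panel; filled circles passed an adjusted p of 0.05, and grey circles were under 32 on all arrays.

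Of the sugar transporters outside the SWEET family, 8 of 24 had a named probe set. In WT drought 2 rose and 1 fell, beside 15.7% and 14.8% of all probe sets. STP1, a proton-coupled monosaccharide importer, rose by 1.27 (adjusted p = 0.009093), and ERD6, a sugar transporter of the vacuole, by 1.26 (adjusted p = 0.004245), while SFP2, a sugar transporter of the ERD6-like group, fell by 1.39 (adjusted p = 0.00108). In OE drought 1 rose and 1 fell, beside 7.06% and 6.53% of all probe sets. STP1 rose by 1.59 (adjusted p = 0.009437), from 298.1 and 330.1 to 730.0 and 1220, and SFP2 fell by 0.89 (adjusted p = 0.01276). None of the 8 was called between genotypes or for the interaction, and none had an unadjusted p under 0.05 there. The rises of ERD6 and the fall of SFP2 in WT kept their calls under all 14 alternatives. With values under 32 set to 32 STP1 lost its call in both genotypes and SFP2 in OE, although STP1 and SFP2 were over 32 on every array. STP1 also lost it in WT without the second array of either WT group, and STP1 and SFP2 in OE without either OE 0d array, with adjusted p over these alternatives up to 0.07766, 0.07729 and 0.1019. The hexose transporter gene TMT1 and ERD6 gained a call for OE drought without the first OE 5d array, and TMT1 also with median centring and without dim probe sets.

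Of the genes listed under sucrose and starch breakdown, 4 of 14 had a named probe set, and 3 rose with drought in WT, beside 15.7% of all probe sets. The list was set by family and pathway, and action on sucrose was not measured for its members. CWINV6, a cell wall hydrolase of the invertase family, rose by 2.02 (adjusted p = 0.003087), the alpha-amylase AMY1 by 1.95 (adjusted p = 0.002187) and the starch-phosphorylating enzyme SEX1 by 1.19 (adjusted p = 0.01399). In OE drought AMY1 rose by 1.46 (adjusted p = 0.01673) and the invertase AT1G62660 fell by 1.03 (adjusted p = 0.02084), 1 of 4 each way beside 7.06% higher and 6.53% lower. CWINV6 measured 14.42 and 11.29 in OE 0d and 18.1 and 34.22 in OE 5d, against 68.58 and 87.65 in WT 5d. Its difference in OE 5d vs WT 5d, −1.64, did not pass (adjusted p = 0.1392), so the direction opposite to that of SWEET4 is given as a value. It passed there, and in the interaction, without the second OE 5d array. With values under 32 set to 32 SEX1 in WT and AMY1 and AT1G62660 in OE lost their calls, although all were over 32 on every array. SEX1 also lost it without either WT 0d array or the first WT 5d array, and AMY1 and AT1G62660 without either OE 0d array, with adjusted p over these alternatives up to 0.09447, 0.1383 and 0.1431. For OE drought SEX1 and CWINV6 gained a call without the first OE 5d array, and for WT drought AT1G62660 gained one without the first WT 5d array. Between genotypes and for the interaction 0 of 4 were called, with an unadjusted p under 0.05 for AT1G62660 in OE 0d vs WT 0d and CWINV6 in OE 5d vs WT 5d.

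Of the cold and dehydration proteins, which RCI2 genes resemble in their known induction, 5 of 14 had a named probe set. COR414-TM1 rose with drought by 1.78 in WT (adjusted p = 0.003696) and 1.99 in OE (adjusted p = 0.007007), and COR15B by 2.40 (adjusted p = 0.002179) and 2.76 (adjusted p = 0.004598). COR15A and the dehydrin COR47 rose in OE, by 1.49 (adjusted p = 0.02897) and 1.33 (adjusted p = 0.005487), and differed by 0.93 (adjusted p = 0.08312) and 0.33 (adjusted p = 0.2317) in WT. Called were thus 2 of 5 in WT and 4 of 5 in OE, all higher, beside 15.7% and 7.06% of all probe sets called higher. Without the second WT 5d array, or without either OE 5d array, COR15A passed in WT. Between genotypes none passed, although their median log2 difference was 1.0 at 0 d and 1.25 at 5 d. At an unadjusted p under 0.05, 3 and 4 of the 5 were higher, beside 998 and 1592 of all 22746 probe sets. COR414-TM1, COR15A and LTI30 are the other probe sets over 2-fold in all 4 comparisons. These medians and counts are therefore no result separate from that rule. Without the second OE 5d array all 5 passed for OE 5d vs WT 5d, in a fit with 4673 calls in all. For the interaction 0 were called, and COR47 alone had an unadjusted p under 0.05. With values under 32 set to 32 the OE calls of COR414-TM1 and COR15A were lost, and the WT call of COR15B (adjusted p = 0.05623). Of these genes COR15B alone had values under 32, on its WT 0d arrays. Of the OE calls, that of COR15A was also lost without any one array at 0 d, those of COR414-TM1 and COR47 without either OE 0d array, and that of COR15B without the second OE 0d array, with adjusted p up to 0.1799, 0.06699, 0.05183 and 0.05603. Some of these genes, COR414-TM1, STP1, ERD6 and SEX1 among them, could be named because the study lists them as changed, so these counts are no independent sample of their lists. A further list of 11 genes for ion balance at the plasma membrane and vacuole had no named probe set.

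The genes whose pattern over the 8 arrays was most like each member were sought among 11977 probe sets with a mean log2 intensity of at least 5. Only those named by the platform annotation could be listed as most alike. Probe sets named from the study's list were left out, so closer genes can be missing. COR414-TM1 was left out in this way, and its r is not given here. It had 45.1 and 45.6 in WT 0d, 112.9 and 123.8 in OE 0d, 226.7 and 107.5 in WT 5d, and 517.2 and 425.7 in OE 5d. All correlations share the same arrays and are descriptions. For SWEET4 the platform-named genes most alike were AT3G07310 (r = 0.983), AT3G11780 (0.973), the linker histone gene HIS1-3 (0.971), AT4G32340 (0.970) and AT2G15830 (0.968). Over all 11977, named or not, 190 probe sets (1.59%) had an r over 0.9. HIS1-3, a histone H1 variant known to respond to drought and abscisic acid, had the wider range. WT 0d gave 11.53 and 11.24, OE 0d gave 17.51 and 22.34, WT 5d gave 58.1 and 36.19, and OE 5d gave 131.5 and 222.6. AT3G07310 had a high r with a small range, from 376.5 in WT 0d to 569.8 in OE 5d.

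Among the same platform-named genes AT4G30660 was most like AT3G10260, a gene of the reticulon family (r = 0.988), and COR15A (0.968). Next came the MYB-type transcription factor gene MYBC1 (0.947), the starch-degrading plastid enzyme gene DPE1 (0.942) and AT4G25660 (0.938). An r over 0.9 was found for 51 probe sets (0.426%). For COR15A, WT 0d gave 88.8 and 74.49, OE 0d gave 244.3 and 213.4, WT 5d gave 214.2 and 112.5, and OE 5d gave 873.7 and 473.6. As for AT4G30660, its OE 0d mean was above its WT 5d mean, and the first arrays at 5 d were the brighter ones. All 5 genes had brighter first arrays in both 5 d groups, by 1.14-fold to 1.59-fold apart from COR15A, a likeness that choosing by correlation over single arrays favours. SWEET4 and AT4G30660 correlated with each other at 0.901 over the 8 arrays and 0.972 over the 4 group means. With group means in place of arrays, 1 of the 5 genes named for SWEET4 (AT3G11780) stayed among the 5 most similar platform-named genes. For AT4G30660 0 of the 5 stayed.

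**Figure D4:**
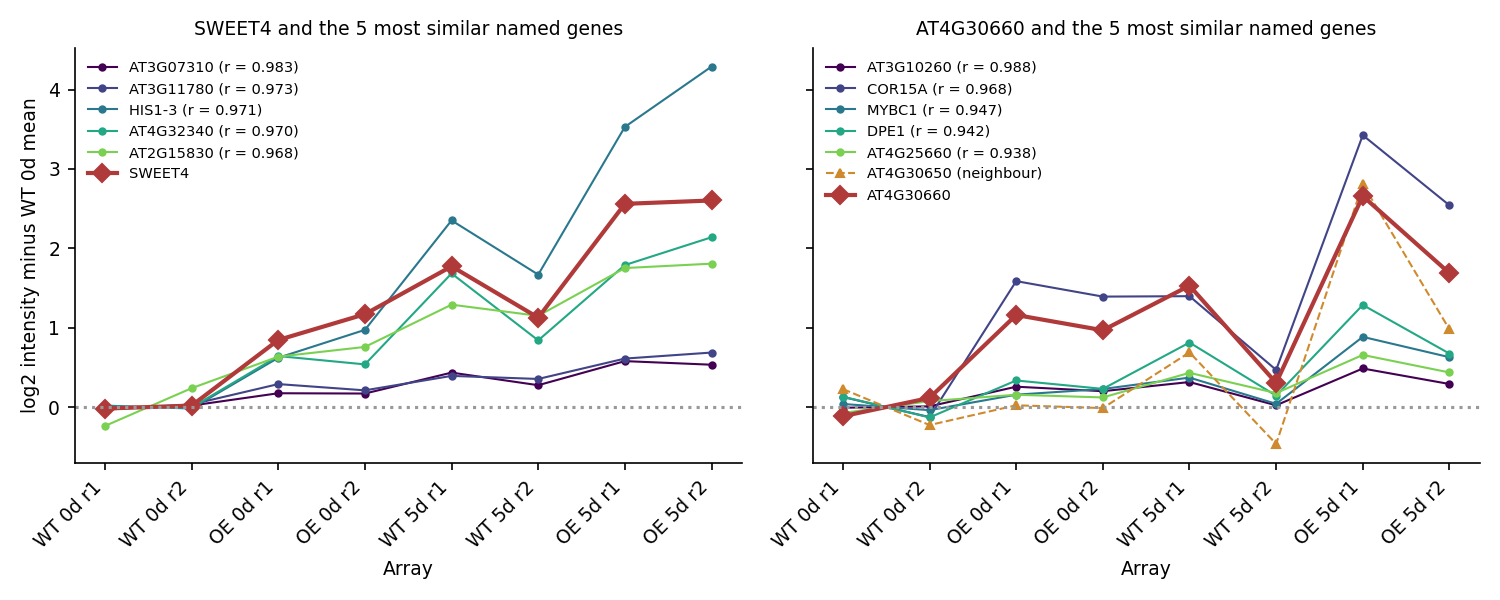
Log2 intensity minus the WT 0d mean on each of the 8 arrays (r1 and r2, replicates 1 and 2) for SWEET4 (left, red) and AT4G30660 (right, red). Beside each are the 5 genes of highest Pearson correlation over the arrays among those named by the platform annotation. AT4G30650, the neighbour of AT4G30660, is dashed. AT4G30660 and COR15A drop together on the second array of WT 5d and of OE 5d, and AT4G30650 stays near 0 in OE 0d.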

How the data were processed

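The 8 samples of leaf RNA were each hybridized to an Affymetrix ATH1 array. The authors deposited 1 normalized intensity per probe set and array on a linear scale; how it was summarized and normalized, and with what software or genome build, is not given in the sources used here. Removing 64 array controls from 22810 probe sets left those tested. Log2 was taken of the intensities, and limma 3.58.1 (R 4.3.3; lmFit and eBayes) was fitted to all 8 arrays with a mean per group, so that the groups shared 1 estimate of spread with 4 residual and 3.99 prior degrees of freedom. Benjamini-Hochberg adjustment was over 22746 probe sets, and "rose", "fell" and "called" stand for an adjusted p under 0.05. A fold change is a difference of mean log2 intensities unless a ratio of means is named. The number of arrays limits the precision, and background was not measured here.

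The members and the 6 lists (88 genes) were chosen with earlier results of these data known. Named in the text were both members and all SWEET and RCI2 genes with a named probe set. Per other list, up to 3 called genes of largest drought change were named. Also named were the 5 most similar platform-named genes per member and the 3 probe sets on each side of the 2-fold threshold. COR47 and further list genes of small counts were named after their values were seen. Names came from the platform annotation, updated to RefSeq locus tags (13513 probe sets with 1 symbol, 503 with several, 8730 not listed), and for 94 probe sets from the study's list of changed genes; 38 of 88 list genes (43.18%) were named. The fit was tested on simulated data with known changes. Alternatives were a replicate block, quantile normalization, median centring, values under 32 set to 32, leaving out dim probe sets (mean log2 under 5), trended robust eBayes, arithmetic means and each array left out. Python 3.11.15 with pandas 2.3.3, numpy 2.4.6 and matplotlib 3.10.9 was used for tables and figures. No sequences of these genes were used here.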

Additional observations from a re-analysis of the deposited data

How the results depend on the processing

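Of 150 values of SWEET4 and AT4G30660 under the alternatives, 144 kept their direction and size within the spread or side of the threshold. With 2 arrays a group, leaving out 1 cannot move a difference beyond this spread, and some alternatives leave the estimate unchanged by design. The 144 is therefore no measure of firmness. It includes AT4G30660 in WT 5d vs WT 0d, at 0.92 with all arrays and 0.30 without the first WT 5d array. With values under 32 set to 32, SWEET4 differed by 0.68 in OE 0d vs WT 0d and by 1.13 in WT 5d vs WT 0d, and its interaction was 0.45. The interaction changed sign only with single arrays left out: for SWEET4 −0.20 without the second WT 5d array and −0.04 without the first OE 0d array (range −0.20 to 0.45), and for AT4G30660 −0.42 without the second WT 5d array and −0.29 without the first OE 5d array (range −0.42 to 0.81). The cause was not tested. It did not pass the threshold for either gene in any of these fits. Same-numbered arrays deviated together with correlations of −0.04 to 0.26 between groups. The largest were those between genotypes on the same day, 0.257 at 5 d and 0.197 at 0 d, and the others were 0.12 or less. The main fit took the arrays as unpaired. An effect shared by same-numbered arrays within a day was not tested, since the replicate block fits 1 effect over both days. With the replicate block the interaction was 0.12 (SE 0.322, adjusted p = 0.8952) for SWEET4 and 0.19 (SE 0.469, adjusted p = 0.8866) for AT4G30660, and the number of probe sets called in OE 5d vs WT 5d went from 11 to 23. With the block AT4G30650 and ERD6 gained a call for OE drought and COR15A for WT drought and for OE 5d vs WT 5d, and no gene of the lists lost one. That number was 17 with median centring, 27 with values under 32 set to 32 and 7 without dim probe sets. With values under 32 set to 32, the calls numbered 50 (18 without) for OE 0d vs WT 0d, 3914 (6943) for WT 5d vs WT 0d, 1267 (3092) for OE 5d vs OE 0d and 55 (7) for the interaction, the last being 3 without dim probe sets. With 1 array left out, where the lone array is taken to vary like the other groups, these counts ranged from 0 to 142 for OE 0d vs WT 0d, 0 to 4673 for OE 5d vs WT 5d, 3869 to 8747 for WT 5d vs WT 0d, 283 to 5647 for OE 5d vs OE 0d and 1 to 4159 for the interaction. The 4673 and 4159 were reached without the second OE 5d array. Of 350 list counts, 312 stayed within 1.5 times, 22 were smaller and 16 larger.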
